A study of Mus musculus with 6 samples.

Results

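The complement genes described here are 9 genes of the 21959 in the deposited table: C1qa, C1qb, C1qc, C1ra, C3, C3ar1, C5ar1, Cfb and Cfp. They were chosen by name as complement components and receptors, with the FPKM values of both groups already seen, so their own differences are given as a description and without a test. All 9 were in the table, and 8 of them passed the filter on low values, at least 1 FPKM in at least 3 libraries. C3ar1 passed through the GPR35-positive libraries alone, and Cfb did not pass. FPKM scales the reads on a gene to the length of the gene and the size of the library, so levels in FPKM can be compared between genes.

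The series holds 6 RNA libraries of mouse cells that the labels call neutrophils, taken from tumours grown from the hepatocellular carcinoma line Hepa1-6. The 3 GPR35-negative and 3 GPR35-positive libraries differ by label in GPR35, a G protein-coupled receptor. Mouse strain, age, the way the cells were divided and whether replicates were separate animals are not given in the sources used here, so a p-value here reflects nothing but the spread among these libraries, which may be technical. Libraries held 15742744 to 18314104 reads assigned to genes.

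Complement is a cascade of blood proteins that tags microbes and dying cells and recruits phagocytes. In the classical pathway C1q, built from the products of C1qa, C1qb and C1qc, binds its target and the proteases C1r and C1s then act on C4 and C2. In the alternative pathway factor B, made from Cfb, joins C3b, and properdin, made from Cfp, holds that complex together. All routes cleave C3, and the released peptides C3a and C5a act on the receptors C3ar1 and C5ar1. Liver is the main source of most circulating components, whereas C1q and properdin come largely from myeloid cells, and the receptors of the peptides are carried by them.

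Markers of liver and of myeloid cells were present in every library. Hepatocyte and hepatoma markers, 19 of 20 listed being in the table, summed to between 31809 and 33487 FPKM in GPR35-negative and between 20793 and 21358 FPKM in GPR35-positive libraries. Mature neutrophil markers, 18 of 18, summed to between 942 and 1194 FPKM and between 9912 and 10849 FPKM in the same order, and none was at 0 in all libraries. The hepatocyte sum was thus the larger in all 6 libraries, which goes against a pure neutrophil sample. Of 18 hepatocyte and hepatoma markers tested 1 rose, 15 fell and 2 did not pass by limma. Over all genes tested, 23.3% were higher and 45.5% lower. The summed macrophage and monocyte list of 18 ran from 207 to 257 FPKM and from 1705 to 1723 FPKM. Cd14, which neutrophils also express, made up 85.7% of that sum in GPR35-negative and 80.9% in GPR35-positive libraries. Kupffer cell markers were nearly absent, since Clec4f stayed below 0.1 FPKM and Timd4 was listed at 0 in every GPR35-negative library and averaged 0.0536 FPKM in the GPR35-positive ones. Gpr35 itself was at 1.57 ± 0.398 FPKM in GPR35-negative and at 20.2 ± 1.89 FPKM in GPR35-positive libraries (SD, n = 3 each). In bulk RNA, fewer cells of a type and less RNA per cell cannot be told apart.

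The upstream DNA of 3 members is shown first, because they take the opposite ends of the pattern that follows: C1qb and Cfp were far higher in GPR35-positive libraries, and C3 was lower. RefSeq's promoter table, on GRCm38.p6, matched 7 of the 9 genes; C1qa and Cfb had no entry. The stretches are the 250 bases before the RefSeq start, on the strand of the gene, at chr4:136886201-136886450, chrX:20931556-20931805 and chr17:57228137-57228386, all on the minus strand. These windows lie outside the gene in both RefSeq and GENCODE M21. Capitals mark matches to 6 short motifs searched on both strands, and overlapping matches run together.
C1qb: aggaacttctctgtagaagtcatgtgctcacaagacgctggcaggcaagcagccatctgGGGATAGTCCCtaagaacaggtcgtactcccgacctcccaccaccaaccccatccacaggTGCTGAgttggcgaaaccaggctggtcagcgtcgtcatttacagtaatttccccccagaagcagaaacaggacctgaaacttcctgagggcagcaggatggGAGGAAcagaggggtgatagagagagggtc
Cfp: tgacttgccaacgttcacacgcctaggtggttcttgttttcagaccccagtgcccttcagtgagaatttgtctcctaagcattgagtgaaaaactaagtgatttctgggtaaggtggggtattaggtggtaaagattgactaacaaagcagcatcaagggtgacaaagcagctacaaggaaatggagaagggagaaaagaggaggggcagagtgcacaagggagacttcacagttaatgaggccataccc
C3: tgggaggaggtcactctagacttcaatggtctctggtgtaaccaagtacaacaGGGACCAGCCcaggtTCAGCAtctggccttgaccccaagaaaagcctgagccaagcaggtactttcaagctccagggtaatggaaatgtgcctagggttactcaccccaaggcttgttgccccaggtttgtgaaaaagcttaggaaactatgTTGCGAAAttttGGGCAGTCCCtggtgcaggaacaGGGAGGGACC

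The motif GAGGAA, a core of PU.1 and other ETS factors, was in the windows of C1qb and C1qc among the 7 genes, and in 23.4% of 32536 promoter windows of the same length. TGCTGA, part of the recognition site of Maf factors, was in 4 of the 7, C1qb, C3, C3ar1 and C5ar1, against 16.1% of all windows. A pattern for NF-kappaB, GGGA followed by any 4 bases and CC, was in C1qb, C1qc and C3, against 17.7%, and in C1qb its 2 matches overlap. TTGCNNAA, a pattern for C/EBP factors, was in the window of C3 alone, 45 to 38 bases before the start, against 9.57% of all windows. A pattern for IRF factors, GAAA and GAAA with any 2 bases between, and TTCNNNGAA, for STAT factors, were in none of the 7, against 2.98% and 7.04%. The Cfp window held none of these letters. In GENCODE M21 the windows of C1qc, C1ra and C5ar1 lie mostly inside the gene, by 151, 216 and 202 of 250 bases. The C3ar1 window overlaps its gene by 4 bases. The NF-kappaB match of C1qc, 40 to 31 bases before the RefSeq start, falls inside the annotated gene. So does the TGCTGA match of C5ar1, at 17 to 12 bases. A match describes letters and is no evidence of binding.

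Transcripts of the 3 C1q chains together made up 22.9, 20.5 and 14.6 FPKM in GPR35-negative libraries and 635, 679 and 676 FPKM in GPR35-positive ones. The means differed 34.3-fold. C1qb was at 10.1, 9.22 and 6.54 FPKM in the 3 GPR35-negative libraries and at 281, 328 and 310 FPKM in the 3 GPR35-positive libraries. C1qa was at 6.25, 5.28 and 3.97 FPKM in the first group and at 173, 174 and 173 FPKM in the second. C1qc was at 6.61, 6.02 and 4.11 FPKM against 181, 177 and 192 FPKM. For each chain the lowest GPR35-positive library was far above the highest GPR35-negative one, and GPR35-negative replicate 3 was the lowest library of all. The ratios of group means were 33.5 for C1qa, 35.6 for C1qb and 32.9 for C1qc. On the log2(FPKM + 1) scale the differences were 4.84 (SE 0.12), 5.02 (SE 0.13) and 4.83 (SE 0.13). Even the lowest value rests on counted fragments, with 65 reads on C1qa in GPR35-negative replicate 3 (exact 95% Poisson interval 50.2 to 82.8, which covers counting error only).

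**Figure D1:**
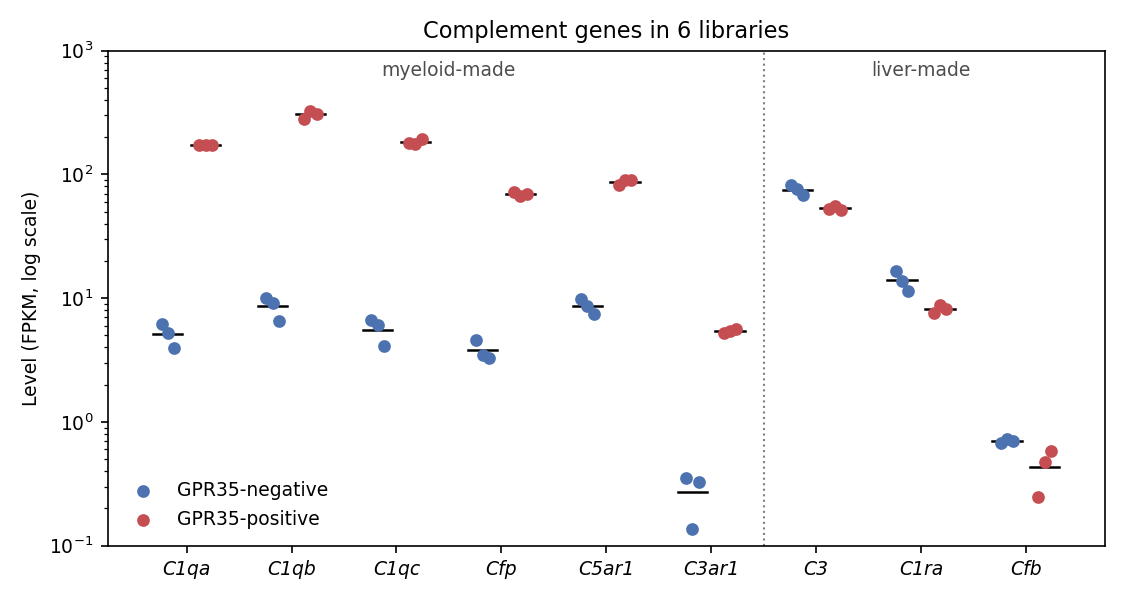
Level of each of the 9 complement genes in FPKM on a log scale, with 1 point per library and a line at each group's mean, for 3 GPR35-negative and 3 GPR35-positive libraries. The 6 genes left of the dotted line, C1q chains, properdin and receptors, are higher in every GPR35-positive library, and the 3 liver-made genes on the right are lower, C3 at 52.0 to 55.3 against 67.7 to 82.3 FPKM.

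The chains kept nearly fixed proportions within libraries. C1qa was at 0.620, 0.572 and 0.607 of C1qb in GPR35-negative and at 0.615, 0.529 and 0.558 of C1qb in GPR35-positive libraries. C1qc was at 0.629 to 0.656 and at 0.539 to 0.643 of C1qb, and C1qa at 0.929 ± 0.0466 and 0.946 ± 0.0409 of C1qc (SD, n = 3 each). For each of these 3 ratios the ranges of the groups overlapped, so a change in the make-up of the chains was not seen beyond the spread between libraries. The genes are neighbours on the minus strand of chromosome 4 in GRCm38 and span 18.7 kb. C1qb lies at 136880129 to 136886187, C1qc at 136889804 to 136893065 and C1qa at 136895917 to 136898803, with gaps of 3616 and 2851 bases. No other annotated exon overlaps theirs, though reads shared by the related chains may have been lost or split in the authors' counting.

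Genes with profiles most like that of C1qb were the chemokine gene Ccl24, the cathepsin gene Ctss, the arginase gene Arg1 and the metalloproteinase gene Mmp12. Likeness is the root-mean-square difference between log2(FPKM + 1) profiles over 6 libraries, each centred on its own mean, and was 0.14, 0.23, 0.29 and 0.31 for these 4 among 9820 candidates. Ccl24 went from a mean of 12.6 to 388 FPKM and Ctss from 15.2 to 405 FPKM. The chains themselves lay between 0.05 and 0.12 of one another.

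Of the macrophage and monocyte markers tested, Adgre1 alone had a ratio as large as those of the C1q chains. None of the mature neutrophil markers did, and the medians of both marker lists were alike and lower. Adgre1, which encodes the macrophage antigen F4/80, went from 0.540 ± 0.167 to 18.2 ± 1.55 FPKM (SD, n = 3 each), a ratio of 33.8. In the macrophage list, 12 of 12 tested were higher by limma, beside 23.3% of all genes tested, and 6 were not tested. Adgre1, Csf1r, Mrc1, Fcgr1, Mertk, Ms4a7 and Cx3cr1 were below 1 FPKM in every GPR35-negative library. They passed the filter through the GPR35-positive libraries alone, so a call of these genes could only be higher. For the 12 the ratio of means had a median of 10.1 and a range of 2.25 to 33.8. The ratios of Ms4a7, Mrc1 and Fcgr1, which macrophages carry and which were singled out after their values were seen, were 30.4, 28.9 and 27.6. They rest on low GPR35-negative means of 0.227, 0.0727 and 0.170 FPKM. In the mature neutrophil list 16 of 18 were higher, beside the same 23.3%. The median ratio was 10.1 and the highest one 12.5, for the formyl peptide receptor gene Fpr1. Within a library C1qb was 17.0, 13.7 and 18.5 times Adgre1 in GPR35-negative and 14.1, 18.7 and 18.1 times Adgre1 in GPR35-positive libraries. Those ranges overlap. Against Csf3r, the receptor gene for granulocyte colony-stimulating factor, C1qb stood at 1.09, 1.19 and 0.996 times its level in GPR35-negative and at 3.82, 3.90 and 4.03 times in GPR35-positive libraries. Against the whole lists C1q stood higher in GPR35-positive libraries in both cases. Summed C1q was 0.0826 ± 0.0103 of the summed macrophage and monocyte markers in GPR35-negative and 0.387 ± 0.0128 in GPR35-positive libraries (SD, n = 3 each), 4.69-fold, with Cd14 as the bulk of that sum. It was 1.79 ± 0.204% and 6.37 ± 0.421% of the summed neutrophil markers (SD, n = 3 each), 3.57-fold. The choice of Adgre1 and Csf3r for the ratios to single genes followed their values, and the part of macrophage RNA in the C1q levels was not tested.

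Properdin, the stabiliser of the alternative convertase, was also far higher in GPR35-positive libraries. Cfp was at 4.61, 3.50 and 3.26 FPKM in GPR35-negative and at 72.3, 66.8 and 69.1 FPKM in GPR35-positive ones. The means differed 18.3-fold. Groups were well apart, and the log2 difference of 3.89 (SE 0.10) lay between those of the C1q chains and C5ar1. Relative to the summed neutrophil markers Cfp was at 0.351 ± 0.0324% in GPR35-negative and 0.666 ± 0.0263% in GPR35-positive libraries (SD, n = 3 each). The gene lies on the minus strand of chromosome X, from 20925454 to 20931555. Its nearest profiles were those of the lysozyme gene Lyz2, the cytokine gene Il1f9, the platelet-activating factor receptor gene Ptafr and Aif1, at distances of 0.06 to 0.10. Lyz2 went from a mean of 40.4 to 579 FPKM.

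The receptor genes for C5a and C3a were higher too, at different levels. C5ar1 was at 9.86, 8.73 and 7.39 FPKM in GPR35-negative and at 81.9, 90.4 and 90.4 FPKM in GPR35-positive libraries, 10.1-fold by group means. No GPR35-negative library came near the GPR35-positive ones. Its ratio to Csf3r was 1.11 ± 0.0342 in GPR35-negative and 1.12 ± 0.0508 in GPR35-positive libraries (SD, n = 3 each), and it made up 0.804 ± 0.0207% and 0.841 ± 0.0668% of the summed neutrophil markers. Both ratios overlapped between the groups. Csf3r was also the gene most like C5ar1 in profile, followed by Cd300lf, Lrrc25 and Asprv1, all within 0.05 to 0.06.

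C3ar1 was the lowest of the myeloid members. It was at 0.350, 0.137 and 0.325 FPKM in GPR35-negative libraries, from 26, 10 and 22 reads, and at 5.21, 5.46 and 5.61 FPKM in GPR35-positive libraries, from 384, 384 and 442 reads. The ratio of means was 20.0, and the log2(FPKM + 1) difference of 2.34 (SE 0.09) understates it for so low a gene. With a pseudocount of 0.1 in place of 1 the log2 difference was 3.95. C5ar1 was 15.7 to 16.5 times C3ar1 in GPR35-positive libraries and 22.8 to 63.7 times in GPR35-negative libraries, where few reads on C3ar1 make the ratio imprecise. The kinase gene Ripk3, Ifit1, the adaptor gene Fyb and the histone gene Hist1h4m were nearest to C3ar1 in profile, at 0.05 to 0.07. That likeness is on the log2(FPKM + 1) scale, which compresses the ratio of so low a gene. Ripk3 went from a mean of 1.11 to 9.61 FPKM, against 0.271 to 5.42 FPKM for C3ar1. C5ar1 lies on the minus strand of chromosome 7 from 16246743 to 16259540, and C3ar1 on the minus strand of chromosome 6 from 122847138 to 122856161.

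The liver-made members went the other way, by small factors. C3, the hub of the cascade, was at 82.3, 76.3 and 67.7 FPKM in GPR35-negative and at 52.9, 55.3 and 52.0 FPKM in GPR35-positive libraries. The groups did not overlap, and the ratio of means was 0.708. C1ra, which encodes the protease C1r, was at 16.5, 13.9 and 11.5 FPKM against 7.56, 8.83 and 8.15 FPKM, a ratio of 0.587. On the log2 scale C3 differed by −0.49 (SE 0.08) and C1ra by −0.69 (SE 0.12), beside a median of −0.19 for all genes tested. Scaling libraries by the median of gene ratios moved that median to −0.07 and left C3 at −0.35 and C1ra at −0.56.

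Cfb, the factor B gene, was hardly expressed. It was at 0.677, 0.731 and 0.697 FPKM in GPR35-negative and at 0.248, 0.477 and 0.580 FPKM in GPR35-positive libraries. These values rest on 33, 35 and 31 reads and on 12, 22 and 30 reads. The ratio of means was 0.620 and the groups did not overlap, but GPR35-negative replicate 3, at 31 reads, and GPR35-positive replicate 3, at 30, had overlapping Poisson intervals, 21.1 to 44.0 and 20.2 to 42.8. C3 was 97.1 to 121 times Cfb in GPR35-negative and 89.6 to 214 times Cfb in GPR35-positive libraries. The exons of Cfb, at 34856374 to 34862518 on chromosome 17, are also annotated to the readthrough gene Gm20547, with which reads could be shared.

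Relative to the hepatocyte markers, C3 and C1ra lay in overlapping ranges in both groups. C3 made up 0.252, 0.240 and 0.202% of their sum in GPR35-negative and 0.248, 0.266 and 0.243% in GPR35-positive libraries, ranges that overlap. C1ra made up 0.0504, 0.0436 and 0.0343% in the first group and 0.0355, 0.0425 and 0.0382% in the second, again with overlap. The sum itself had a ratio of 0.648 between the groups. What hepatocyte or hepatoma RNA in these libraries contributes to C3 and C1ra was not tested. C3 had close neighbours in profile in Mvb12a, Chchd2 and Ranbp3, at 0.01 to 0.02, and C1ra in Kif18b, Gprc5c, the ceruloplasmin gene Cp and Tomm34, at 0.04 to 0.05. For Cfb they were Kctd13, Arrdc2, Traf5 and Rxra, again on the log2(FPKM + 1) scale, which compresses the ratio of a low gene. Kctd13 went from a mean of 6.13 to 5.19 FPKM, against 0.702 to 0.435 FPKM for Cfb.

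Of the 9 genes, then, 6 were higher and 3 lower with no overlap between the groups. Over all 10060 genes tested limma called 68.8% at an adjusted p under 0.05, and 72.5% had groups that did not overlap, 24.3% with higher and 48.2% with lower values in GPR35-positive libraries. The contrast was used in choosing the members, so their count is no result beside that share.

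**Figure D2:**
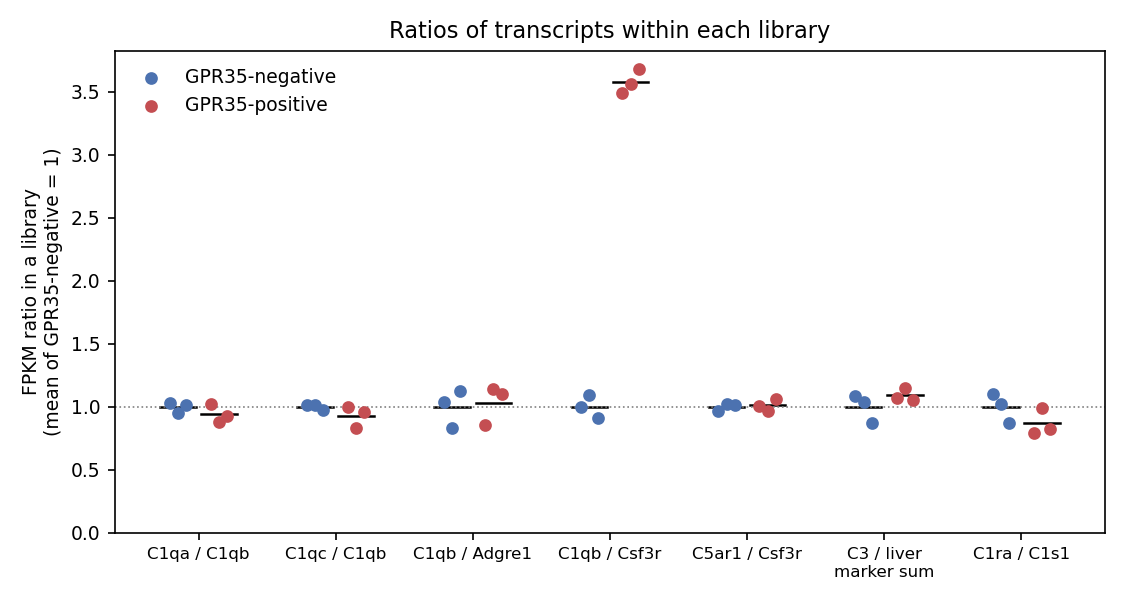
Ratio of FPKM between a pair of transcripts, or between C3 and the summed hepatocyte and hepatoma markers, in each library, divided by the mean ratio of the 3 GPR35-negative libraries, with a line at each group's mean. C1qb against Csf3r is 3.58 times higher in GPR35-positive libraries, whereas in the 6 other ratios drawn the points of the groups overlap. Csf3r and Adgre1 were chosen after their values were seen, and the ratios drawn are a selection. Of those not drawn, summed C1q to the macrophage marker sum (4.69-fold) and Cfp to the neutrophil marker sum (1.90-fold) did not overlap. C5ar1 to the neutrophil marker sum did.

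The rest of the pathway was read from a list of 51 other complement genes, set up by their place in the pathway, of which 50 were in the table and 23 passed the filter. By limma, with Benjamini-Hochberg adjustment at 0.05 over all genes tested, 8 of the 23 rose, 13 fell and 2 did not pass. Of the 8, Fcna, C5ar2, Itgam, Itgax, Cd93 and Lair1 were below 1 FPKM in every GPR35-negative library. They passed the filter through the GPR35-positive libraries alone, so a call of these genes could only be higher. Over all genes tested, 23.3% were higher and 45.5% lower. The median log2 fold change of the 23 was −0.33 and that of all genes tested −0.19. Of 27 genes below the filter none was above 1.05 FPKM in any library. Without a filter 8 of these 27 were called higher and 0 lower, with 5 to 167 reads each over all 6 libraries, which brings the genes higher to 16 of 50. In that fit 17.4% of 19818 genes were higher and 22.1% lower.

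The proteases that sit beside C1r in the C1 complex fell. C1s1 went from 50.6 ± 3.26 to 34.4 ± 1.79 FPKM (SD, n = 3 each; log2 fold change −0.54, SE 0.07, adjusted p = 0.000128 by limma). C1s2 dropped by 0.49 (log2), and C1rb stayed between 0.18 and 0.52 FPKM, below the filter. C1ra stood at 0.274 ± 0.0328 of C1s1 in GPR35-negative and 0.239 ± 0.0290 in GPR35-positive libraries, with overlap. The 4 genes lie within 124 kb of chromosome 6, with C1ra at 124512405 to 124523443 on the plus strand. C1ra and C1rb, like C1s1 and C1s2, are close copies whose reads may have been split, and an antisense gene overlaps C1s1. Summed C1q was 0.303 to 0.422 times C1s1 in GPR35-negative libraries and 18.3 to 20.9 times C1s1 in GPR35-positive libraries. Transcripts for the recognition part of C1 and for this protease thus stood in very different proportions in the groups. Protein was not measured, so the make-up of C1 itself is not known from these values.

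In the lectin pathway the recognition gene Fcna rose, having passed the filter through the GPR35-positive libraries alone, and the protease gene Masp1 fell. Fcna, which encodes ficolin A, was at 0.380, 0.687 and 0.324 FPKM in GPR35-negative and at 16.2, 15.6 and 16.1 FPKM in GPR35-positive libraries. That is a ratio of 34.4 (log2 fold change 3.54, SE 0.10, adjusted p = 1.19e-09 by limma), close in size to the ratios of the C1q chains. Masp1 went from 3.51 ± 0.318 to 2.08 ± 0.0782 FPKM (SD, n = 3 each) and fell by 0.55 on the log2 scale. The mannose-binding lectin genes Mbl1 and Mbl2, Fcnb, Colec10, Colec11 and Masp2 were below the filter. An antisense gene overlaps Fcna.

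Both genes for the parts of the classical and lectin C3 convertase, C2 and C4b, fell. C2 was at 1.99, 1.75 and 2.54 FPKM in GPR35-negative and at 1.21, 1.15 and 1.30 FPKM in GPR35-positive libraries (log2 fold change −0.47, adjusted p = 0.00204 by limma), and C4b went from 1.96 ± 0.398 to 1.34 ± 0.141 FPKM (SD, n = 3 each). The C4b call, at an adjusted p of 0.0194 by limma, was lost when negative library 1 (0.0757), negative library 2 (0.0638) or positive library 1 (0.0668) was left out, and when libraries were scaled by median ratios (0.0618) or no filter was used (0.0649). Negative and positive libraries are numbered here by their replicate number. C2 ends 85 bases from Cfb, and the readthrough gene Gm20547 covers exons of both. None of the 7 terminal components, the C5 gene Hc among them, reached the filter, and the factor D gene Cfd was listed at 0 in all GPR35-negative libraries and at most 0.199 FPKM in the others.

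Secreted regulators fell with the liver-made components, other than the C1 inhibitor. Clu, which encodes clusterin, was at 200, 202 and 201 FPKM in GPR35-negative and at 136, 134 and 128 FPKM in GPR35-positive libraries (log2 fold change −0.59, SE 0.06, adjusted p = 1.51e-05 by limma). Cfi, the gene of the C3b-cleaving factor I, went from 44.5 ± 2.12 to 28.3 ± 1.01 FPKM, and Cpn1, which encodes the carboxypeptidase that trims C3a and C5a, from 29.2 ± 1.95 to 18.8 ± 0.175 FPKM (SD, n = 3 each). Vtn (vitronectin) dropped by 0.34 and C4bp (C4-binding protein) by 0.36 (log2; adjusted p = 0.0231 and 0.0221 by limma). Vtn lost its call when libraries were scaled by median ratios (0.118), without a filter (0.0591), or when negative library 1 (0.0668), positive library 1 (0.0677) or positive library 2 (0.0572) was left out. C4bp lost it with that scaling (0.0900), without a filter (0.0606), or when negative library 1 (0.0778), negative library 2 (0.0587), positive library 2 (0.0603) or positive library 3 (0.0727) was left out. Serping1, the C1 inhibitor gene, rose from 4.64 ± 0.516 to 7.96 ± 0.672 FPKM (SD, n = 3 each; log2 fold change 0.67, SE 0.10, adjusted p = 0.000203 by limma).

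Membrane regulators were low, and those tested did not pass. Cr1l, which encodes the rodent regulator Crry, was at 8.89, 7.52 and 7.31 FPKM in GPR35-negative and at 7.83, 7.47 and 7.55 FPKM in GPR35-positive libraries (log2 fold change −0.04, SE 0.09, adjusted p = 0.674 by limma). Cd59a, which encodes an inhibitor of the membrane attack complex, was at 5.42 ± 0.457 and 5.01 ± 0.345 FPKM (SD, n = 3 each; adjusted p = 0.365 by limma). For both genes the groups overlapped. Cd55 and Cd46 reached at most 0.589 and 0.123 FPKM, below the filter. Both were called higher when no filter was used (adjusted p = 0.0119 and 0.00369 by limma), beside 17.4% of all genes in that fit. Those calls rest on 167 and 52 reads over all 6 libraries.

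Receptors for complement fragments on leukocytes rose. Of those called higher, all but Itgb2 passed the filter through the GPR35-positive libraries alone. C5ar2, the second C5a receptor gene, lies 2588 bases from C5ar1 and went from 0.264 ± 0.0144 to 2.01 ± 0.287 FPKM (SD, n = 3 each), 7.61-fold (log2 fold change 1.25, SE 0.09, adjusted p = 5.43e-07 by limma). The integrin genes of the iC3b receptors CR3 and CR4, Itgam, Itgax and their partner Itgb2, went up 10.2-fold, 12.1-fold and 8.90-fold. Itgb2 was at 7.18, 6.85 and 6.37 FPKM in GPR35-negative and at 58.1, 62.8 and 60.5 FPKM in GPR35-positive libraries (adjusted p = 6.21e-10 by limma). These integrin ratios are near the median of 10.1 for mature neutrophil markers. Cd93 and Lair1, both described as binding C1q, rose 10.9-fold and 16.8-fold. Vsig4, the receptor of resident macrophages for C3b, was at most 0.0413 FPKM and Cr2, the receptor of B cells, at most 0.0356 FPKM.

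Binding partners of C1q that many cell types make fell. C1qbp, which encodes a mostly mitochondrial protein, went from 195 ± 16.9 to 135 ± 5.47 FPKM (SD, n = 3 each; log2 fold change −0.52, SE 0.08, adjusted p = 0.000223 by limma). The endocytic receptor gene Lrp1 and the calreticulin gene Calr dropped by 0.45 and 0.22 (log2) and were picked for naming after their values were seen. Calr, at an adjusted p of 0.0254 by limma, lost its call when libraries were scaled by median ratios (0.411) or when negative library 1 (0.0682), positive library 2 (0.0790) or positive library 3 (0.111) was left out.

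**Figure D3:**
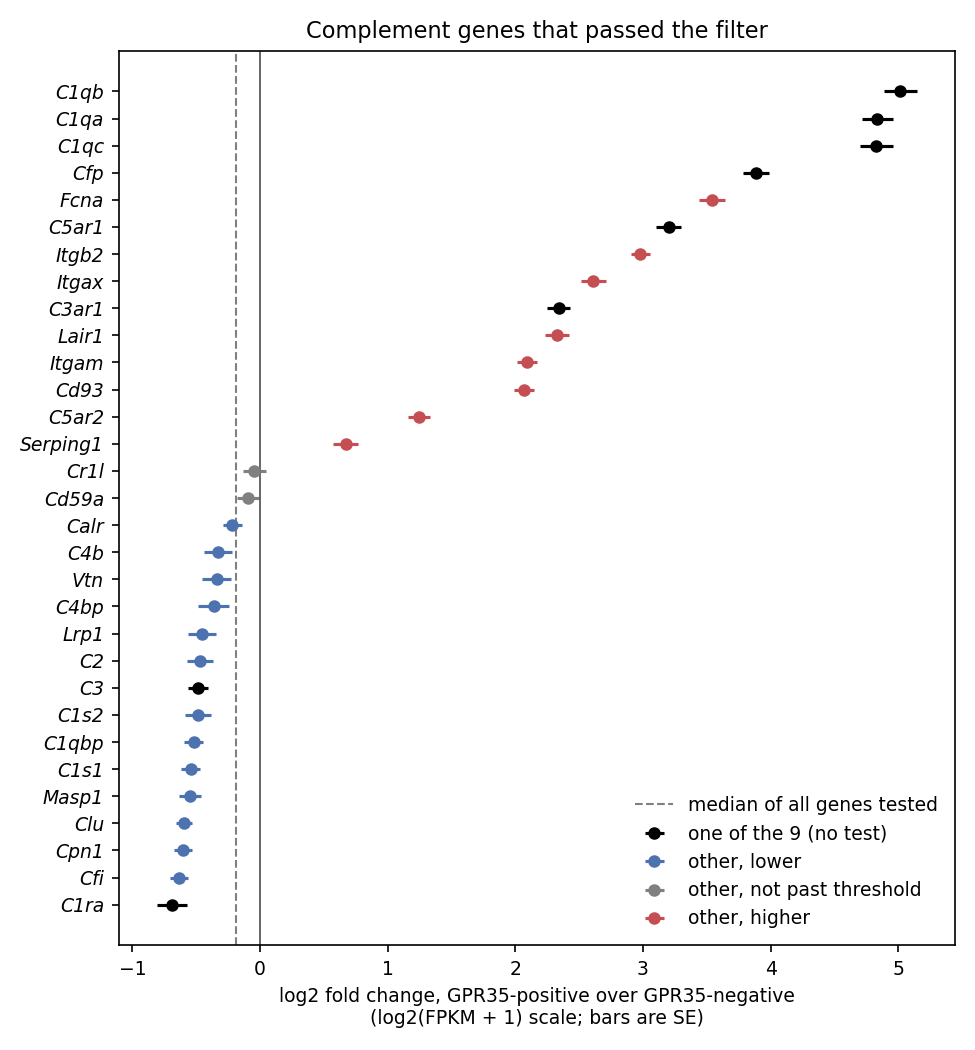
Log2 fold change, GPR35-positive over GPR35-negative on the log2(FPKM + 1) scale, for the 8 members (black, no test) and the 23 other complement genes that passed the filter, with bars of 1 SE. Higher genes reach from 0.67 for Serping1 to 5.02 for C1qb, while the lower members and the genes called lower lie between −0.69 and −0.22, all below the dashed median of all genes tested at −0.19.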

How the data were processed

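The authors deposited 1 table of FPKM with 1 column per library, per the file headers. The submitters' processing notes list DESeq 1.38.3, HTSeq 0.9.1, HISAT2 2.1.0 and fastp 0.22.0, with no role for each, and the human build GRCh38, while the IDs are mouse Ensembl genes. The annotation behind the table and its use of strand are not given in the sources used here. Symbols, GRCm38 positions and exon lengths came from GENCODE M21, in which 21902 of 21959 IDs had an entry. With these lengths 97.7% of values above 0 were whole reads within 0.02, and the totals of reads were taken from those steps, so depth is known: on 1 kb of exon, 1 read adds 0.0546 to 0.0635 FPKM. All reads of the 9 genes came out whole. Counts of replicates differed beyond sampling noise (chi-square per gene averaging 4.93 to 19.1), so each counts as 1 sample.

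Values of log2(FPKM + 1) were tested between the groups by limma-trend (limma 3.58.1 in R 4.3.3). The test was two-sided, without covariates, and p-values were adjusted by Benjamini-Hochberg over 10060 genes. On simulated data with 9694 genes tested it recovered 89% of 100 genes changed 1.5-fold and all of 100 changed 2-fold, with 17 false calls. The simulation gave every gene the same dispersion, 0.00786, and changed no other genes, whereas 68.8% of genes were called in the data. Its rates need not hold for these libraries. Folds other than log2 are ratios of mean FPKM. The members, lists, motifs and alternatives were chosen with earlier results of these data known. Named are all 9 members; of each complement role every gene called, or the 6 with the smallest p; up to 3 genes of other lists; and for 7 members the 4 protein-coding genes nearest in profile; further genes were named after their values were seen, and some results are not reported here. Alternatives were a pseudocount of 0.1, other filters, median-of-ratios scaling, limma-voom on recovered reads, a replicate block and leaving out each library. Python 3.11.15, pandas 2.3.3, numpy 2.4.6, scipy 1.17.1 and matplotlib 3.10.9 were used.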

Additional observations from a re-analysis of the deposited data

How the results depend on the processing

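None of the 104 values of the 9 members under the alternatives changed sign. C1qb ranged from 4.85 to 5.16, Cfp from 3.81 to 4.20, C3ar1 from 2.26 to 4.40, C3 from −0.56 to −0.35 and Cfb from −0.64 to −0.16 on the log2 scale. Of 276 values of other complement genes, 256 kept call and direction, 20 were no longer past the threshold and 0 reversed. Without a filter, 16 other complement genes were higher in place of 8. With median-of-ratios scaling 3036 genes were lower in place of 4575, and 47.4% of calls were higher against 33.9%. With a replicate block 2365 genes were higher and 4633 lower, against 2342 and 4575. The block changed no call of a complement gene, while of the other genes named it ended that of Dcn (adjusted p = 0.0606 by limma). The deviations of same-numbered libraries from their group means correlated at −0.00177, 0.400 and −0.0642. The value of 0.400 was the highest of any pair, but not every library correlated best with its own number. With 3 libraries a group these deviations are not independent, so the correlations cannot decide whether same-numbered libraries were paired. Depth limits Cfb and C3ar1, which rest on 10 to 35 reads in GPR35-negative libraries. With 3 libraries a group, an exact permutation test of 1 gene could not go below p = 0.10.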

Other observations

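Transcription factors described as acting on complement genes were mostly higher in GPR35-positive libraries. Of 13 tested by limma, 9 rose, 2 fell and 2, Cebpa and Rela, did not pass, against 23.3% of all genes higher and 45.5% lower. Spi1, which encodes PU.1, went from 7.27 ± 0.867 to 84.8 ± 1.14 FPKM (SD, n = 3 each; log2 fold change 3.38, SE 0.09, adjusted p = 6.67e-10 by limma). Cebpd went from 4.95 ± 0.764 to 24.4 ± 2.06 FPKM, and Nfkb1 rose 3.93-fold from 2.80 ± 0.177 FPKM (SD, n = 3 each). Irf8, at an adjusted p of 0.0479, lost its call in 7 of 12 settings, with an adjusted p of up to 0.184 when positive library 2 was left out. Hnf4a, a hepatocyte factor singled out after its values were seen, fell to a ratio of 0.454, beside 0.708 for C3. In GPR35-negative libraries Cebpb was at 21.2, 26.3 and 67.7 FPKM, with replicate 3 far above the others.

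Acute-phase genes, which the liver induces with C3 and Cfb in inflammation, moved in both directions. Of 13 tested, 3 rose, 6 fell and 4 did not pass, shares near the 23.3% higher and 45.5% lower of all genes tested. Of the 3, Saa3 and Orm1 passed the filter through the GPR35-positive libraries alone. Saa3, Hamp and Orm1 rose 4.43-fold, 5.08-fold and 3.45-fold, all at mean levels below 5.2 FPKM, while the plasma protein genes Hpx, Fga, Fgb, Fgg and Cp and the metallothionein gene Mt2 fell to ratios between 0.603 and 0.809. Of these, Fgg lost its call when libraries were scaled by median ratios (adjusted p = 0.115). Hp, the haptoglobin gene, was at 92.4 ± 5.37 and 96.4 ± 6.24 FPKM (SD, n = 3 each; adjusted p = 0.485 by limma), and passed with that scaling (0.0461). Saa1 and Saa2, the main inducible serum amyloid genes of mouse liver, stayed below 0.1 FPKM, and Crp was listed at 0 in all 6 libraries.

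Other cell types were described by their own marker lists. Over all genes tested, 23.3% were higher and 45.5% lower. Of the genes named below, Eng and Batf3 passed the filter through the GPR35-positive libraries alone. All 5 fibroblast and stellate cell markers tested of 10 rose, led by Acta2 at 6.24-fold, and the list's sum went from a range of 13.5 to 18.2 FPKM to one of 31.3 to 38.1 FPKM. Col1a1 lost its call without a filter (adjusted p = 0.0845) or without negative library 3 (0.0684), positive library 2 (0.0985) or positive library 3 (0.0553). Dcn lost it without a filter (0.0989) or without negative library 2 (0.0902), negative library 3 (0.122), positive library 1 (0.0838) or positive library 3 (0.173). Of 4 endothelial markers tested, Pecam1 and Eng rose and Egfl7 and Esam fell. The Pecam1 call was lost without negative library 2 (adjusted p = 0.0734) or positive library 1 (0.0582), and the Esam call without negative library 1 (0.0874) or positive library 2 (0.0899), without a filter (0.0532) and when libraries were scaled by median ratios (0.162). Of 3 dendritic cell markers tested, Ccr7 and Batf3 rose and Bst2 fell, the last losing its call without negative library 2 (adjusted p = 0.0553) and with that scaling (0.451), where its log2 fold change was −0.06. For T and NK cells 4 of 8 tested markers fell and 0 rose, beside 45.5% of all genes tested that were lower. Of these 4, Lck lost its call with that scaling (adjusted p = 0.112) or without positive library 3 (0.0608), and Prf1 with that scaling (0.0601). Sdc1, alone of the B and plasma cell list in passing the filter, fell. The part of these cell types in the complement levels was not tested.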
